A study of Mus musculus with 12 samples.

Results

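The 9 genes described here encode the giant filaments titin (Ttn) and nebulin (Neb), the 3 myomesins of the M-band (Myom1, Myom2 and Myom3), 3 myosin-binding proteins of the thick filament (Mybpc1, Mybpc2 and Mybph) and the fast-fibre Z-disc protein α-actinin-3 (Actn3). They were taken by gene name from a table of 30239 genes, each name had 1 row, and all 9 passed the filter on low values that left 11376 genes for testing. Poly(A) RNA had been sequenced from the tibialis anterior, a fast muscle at the front of the lower leg, of mice aged 6 months that had received no treatment. DMD-Null mice, mdx mice and wild-type (WT) mice gave 4 libraries each. The mdx strain carries a nonsense mutation in the dystrophin gene Dmd and is a common model of Duchenne muscular dystrophy. DMD-Null mice are named for a lack of that gene, and the allele, the strain background and the sex of the mice are not given in the labels. The replicates carry numbers and nothing that ties each to its own animal, so every p-value here refers to the spread between libraries, which may be technical. The study's title concerns muscle weakness and regeneration, and the comparisons ask how the transcripts of these sarcomere proteins differ between each dystrophin-deficient genotype and WT, and between DMD-Null and mdx.

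The sarcomere is the contractile unit of striated muscle, with thin actin filaments anchored at the Z-disc and thick myosin filaments linked at the M-band. Titin spans from the Z-disc to the M-band and acts as a spring and scaffold, and nebulin runs along the thin filament and helps to set its length. Myomesins crosslink titin and neighbouring thick filaments at the M-band: Myom1 is found across striated muscle, Myom2 (M-protein) is typical of fast fibres, and Myom3 marks slower fibre types. Mybpc1 and Mybpc2 encode the slow and fast skeletal forms of myosin-binding protein C, which sits in stripes along the thick filament and tunes crossbridge cycling, and Mybph encodes the shorter, related myosin-binding protein H.

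Total counts were 60693078 to 64554184 in DMD-Null libraries, 64120795 to 68054627 in mdx libraries and 61145904 to 63073041 in WT libraries. Dmd itself had 71 to 164 reads in DMD-Null libraries, 713 to 1254 in mdx libraries, and 542, 3597, 412 and 2446 in WT 1 to WT 4. The libraries labelled WT 1 and WT 3 thus held fewer Dmd reads than any mdx library, which goes against their label. After TMM scaling they were at 12.5 and 9.58 CPM, against 10.4 to 17.6 CPM in mdx. Other values went with the label. In all WT libraries macrophage markers summed to 96.7 to 167 CPM, against 796 to 1034 CPM in mdx. Fibroblast markers summed to 351 to 1004 CPM in WT and 3277 to 4085 CPM in mdx. Why Dmd was low in WT 1 and WT 3 was not tested. Library names are those of the labels throughout, and each direction against WT rests in part on WT 1 and WT 3. These libraries stood apart in other ways too. Their TMM scaling factors were 0.694 and 0.698, against 0.951 to 1.18 in the other libraries, and their GC-rich genes ran high: the rank correlation across genes between gene GC content and deviation from the gene's mean was 0.655 in WT 1 and 0.604 in WT 3. It was 0.449 in DMD-Null 4 and between -0.579 and -0.0935 in the remaining 9 libraries. The same correlation with gene length was -0.208 in WT 1 and -0.258 in WT 3, so longer genes tended to run low there. In the other libraries it was between -0.0887 and 0.22. Results are therefore given with and without WT 1 and WT 3 wherever their absence ends a call. All 10 skeletal muscle fibre markers were above 1 CPM (counts scaled to a library total of 1e+06) in every library. Of 8 cardiac markers, Mybpc3, Myl7 and Nppa were below it in every library, and 4 reached it in all libraries of each genotype. The 8 cardiac markers summed to 98.2 to 150 CPM in DMD-Null, 104 to 177 CPM in mdx and 19.5 to 45 CPM in WT. Summed liver markers were lower in DMD-Null (54.7 to 234 CPM) and mdx (104 to 187 CPM) than in WT (611 to 686 CPM), and their part in the results was not tested.

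The 9 transcripts together made up 2.23 ± 0.298% of all counts in DMD-Null, 2.07 ± 0.256% in mdx and 2.49 ± 0.511% in WT (SD, n = 4 each). On the FPKM scale, fragments scaled to gene length and library size, which allows levels of different genes to be compared, Actn3 was the most abundant in every genotype. It averaged 2064 ± 288 FPKM in DMD-Null, 1985 ± 239 FPKM in mdx and 2816 ± 887 FPKM in WT. Mybpc2, Mybpc1, Myom2 and Myom1 followed in that order in each genotype, and Myom3 was last, at 2.84 ± 1.09 FPKM in DMD-Null, 2.62 ± 0.512 FPKM in mdx and 5.01 ± 1.51 FPKM in WT. Mybph ranked above Ttn in DMD-Null and mdx and below it in WT. In DMD-Null the ranges of Neb and Mybph, and of Mybph and Ttn, overlapped. In mdx no neighbours in the order overlapped. In WT the ranges overlapped between each pair of neighbours from Myom2 through Myom1, Neb and Ttn to Mybph. The length that the deposited counts and FPKM values imply differed from the longest annotated transcript, for example 130063 against 106824 bases for Ttn, and with counts per kilobase of the longest transcript all 9 genes kept their rank in each genotype.

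**Figure D1:**
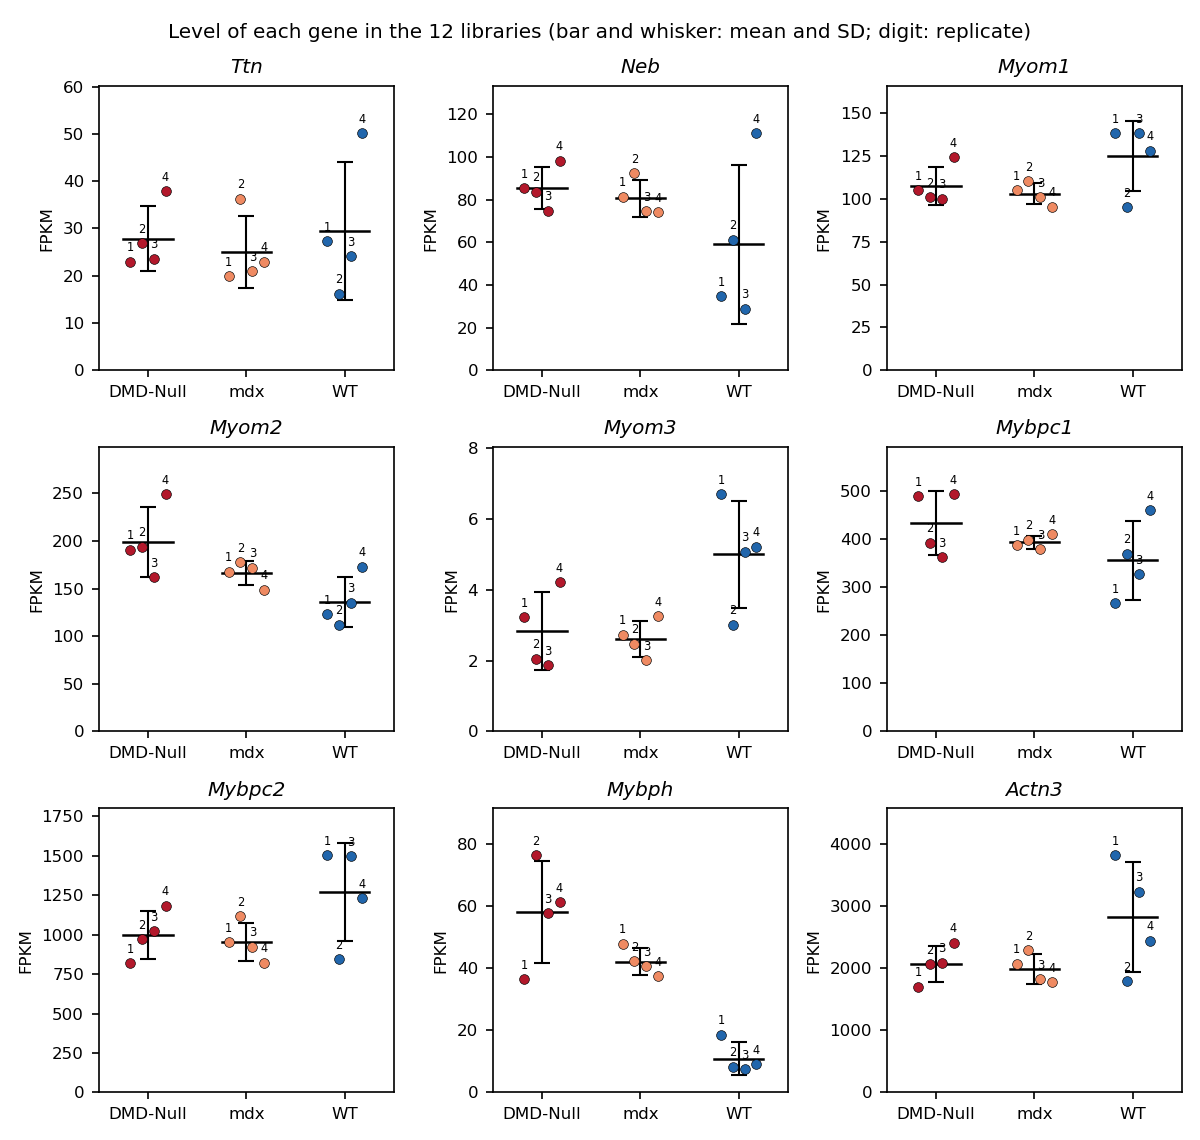
FPKM of each of the 9 genes in the 12 libraries, with DMD-Null, mdx and WT from left to right, each point a library marked with its replicate number, and the bar and whisker the mean and SD of 4 libraries. Mybph is the gene whose WT points, 7.53 to 18.6 FPKM, all lie below the DMD-Null and mdx points, and WT points of Neb, Ttn and Actn3 are widely spread.

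Of the 9 genes, 1 rose and 4 fell in DMD-Null against WT by edgeR's quasi-likelihood test at a Benjamini-Hochberg adjusted p under 0.05, and 1 rose and 4 fell in mdx against WT, with the same genes on each side. Over all tested genes, 28.5% were called in DMD-Null, 12.9% higher and 15.6% lower, and 35.2% in mdx, 15% higher and 20.1% lower. That balance turned with the scaling. With TMM factors 1471 genes were called higher and 1770 lower in DMD-Null, and 1709 higher and 2292 lower in mdx. With library totals in their place 3360 were higher and 574 lower in DMD-Null, and 3350 higher and 707 lower in mdx. The gene that rose was Mybph, and those that fell were Myom1, Myom3, Mybpc2 and Actn3. The median log2 fold change of the 9 genes was -0.54 in DMD-Null, beside 0.01 for all tested genes, and -0.69 in mdx, beside 0.00. Both comparisons use the same 4 WT libraries, so their likeness is not independent. Without WT 1 and WT 3, Mybph was the single member called in either comparison, beside 12% of all genes called higher and 9.84% lower in DMD-Null, and 12.4% higher and 10.9% lower in mdx. With library totals, which moved the median of all genes to 0.44 in DMD-Null and 0.42 in mdx, Mybph and Myom3 stayed past the threshold in both comparisons, while Myom1 (edgeR adjusted p = 0.153 and 0.0809), Mybpc2 (0.128 and 0.0811) and Actn3 (0.0933 and 0.0656) did not. In bulk tissue, fewer cells or fibres of a type and less RNA per cell cannot be told apart.

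Mybph was higher in both dystrophin-deficient genotypes. Its level was 36.5, 76.3, 57.7 and 61.3 FPKM in the 4 DMD-Null libraries, 47.9, 42.2, 40.7 and 37.5 FPKM in the mdx libraries, and 18.6, 8.31, 7.53 and 9.17 FPKM in the WT libraries. Every DMD-Null and mdx library lay above every WT library, and WT 1 was the highest of the WT libraries. The log2 fold change was 1.86 (SE 0.34), or 3.63-fold, in DMD-Null against WT (edgeR adjusted p = 0.00281). It was 1.41 (SE 0.34), or 2.65-fold, in mdx against WT (edgeR adjusted p = 0.0102). Unless another scaling is named, fold changes use TMM factors while FPKM is scaled to library size, so they can differ. Mybph averaged 58 FPKM in DMD-Null, 42.1 FPKM in mdx and 10.9 FPKM in WT. Its scaled CPM also did not overlap, a separation in the higher direction that 11.6% of all genes showed in DMD-Null and 16% in mdx. In the lower direction, scaled CPM did not overlap for 0 of the 9 genes in DMD-Null (10.1% of all genes). In mdx it did not overlap for 3 (14.7% of all genes), which were Myom1, Myom3 and Mybpc1. On the FPKM scale each of these 3 overlapped WT, and Mybpc1 averaged higher in mdx than in WT. Without WT 1 and WT 3 the log2 fold change of Mybph was 2.45 in DMD-Null (edgeR adjusted p = 0.000121) and 1.99 in mdx (edgeR adjusted p = 0.000282).

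Mybph lies on the plus strand of mouse chromosome 1 at positions 134193448 to 134201232 (GRCm38), with up to 11 exons. Of its 50-base words, 45% are also found in transcripts of other genes. The gene that shares the most is Adora1, an adenosine receptor gene on the opposite strand. The libraries were stranded per the labels, which do not say if reads were also assigned by strand. The Adora1 row held 441, 527, 464 and 472 reads in DMD-Null, 334, 374, 277 and 365 in mdx and 415, 353, 208 and 232 in WT, which in all was 6.11% of the 5957 to 11958 (DMD-Null), 6187 to 8327 (mdx) and 1242 to 3123 (WT) reads per library of Mybph. How many reads were split between the rows was not tested. Summed levels of other marker lists also differed in the same libraries. The 8 regenerating-fibre markers summed to 789 to 1155 CPM in DMD-Null, 945 to 1265 CPM in mdx and 249 to 781 CPM in WT, where Chrng, Mymk and Mymx were below 1 CPM. The 9 macrophage markers summed to 468 to 979 CPM in DMD-Null, 796 to 1034 CPM in mdx and 96.7 to 167 CPM in WT, and the 8 fibroblast markers to 2959 to 4312 CPM, 3277 to 4085 CPM and 351 to 1004 CPM in the same order of genotypes. Such sums do not give the direction of each marker, and their part in the level of Mybph was not tested.

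The promoters of the called genes are shown because one of them moved against the others. RefSeq windows from 250 bases before to 50 bases after the annotated start (GRCm38.p6) were matched for 6 of the 9 genes, and the 4 below are those that changed and had a window. Capitals mark exact matches, on either strand, to the E-box CANNTG bound by myogenic factors, the MCAT element CATTCC, the TATA sequence TATAAA, and the MEF2 and CArG motifs of muscle genes.
Mybph, chr1:134193198-134193497, plus strand: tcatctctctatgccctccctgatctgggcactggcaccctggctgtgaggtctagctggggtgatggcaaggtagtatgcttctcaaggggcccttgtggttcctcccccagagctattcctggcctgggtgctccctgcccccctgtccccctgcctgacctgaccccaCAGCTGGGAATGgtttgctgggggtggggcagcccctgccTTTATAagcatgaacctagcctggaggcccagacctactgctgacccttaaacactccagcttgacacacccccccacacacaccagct
Mybpc2, chr7:44524620-44524919, minus strand: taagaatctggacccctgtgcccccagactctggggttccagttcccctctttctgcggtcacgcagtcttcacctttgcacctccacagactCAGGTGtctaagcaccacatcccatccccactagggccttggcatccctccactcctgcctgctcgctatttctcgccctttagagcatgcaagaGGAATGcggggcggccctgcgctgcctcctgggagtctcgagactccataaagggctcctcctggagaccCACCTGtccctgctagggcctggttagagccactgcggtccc
Myom1, chr17:71019307-71019606, plus strand: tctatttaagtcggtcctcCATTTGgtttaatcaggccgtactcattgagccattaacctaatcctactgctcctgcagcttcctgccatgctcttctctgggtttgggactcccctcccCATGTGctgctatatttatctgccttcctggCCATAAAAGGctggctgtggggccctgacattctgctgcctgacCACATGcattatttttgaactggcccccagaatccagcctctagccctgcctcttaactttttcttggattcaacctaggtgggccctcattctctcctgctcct
Myom3, chr4:135759465-135759764, plus strand: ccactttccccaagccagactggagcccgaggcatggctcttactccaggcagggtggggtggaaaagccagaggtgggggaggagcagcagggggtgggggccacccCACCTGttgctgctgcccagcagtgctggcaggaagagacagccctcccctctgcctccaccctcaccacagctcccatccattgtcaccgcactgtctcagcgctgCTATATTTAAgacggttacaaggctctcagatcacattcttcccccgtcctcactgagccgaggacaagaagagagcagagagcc
The Mybph window held an E-box at -79 that runs straight into an MCAT match at -73, and a TATA match at -39, counted from the start. The Mybpc2 window held E-boxes at -157 and 9 and an MCAT match at -62, the Myom1 window E-boxes at -231, -130 and -55 and a CArG match at -99, and the Myom3 window an E-box at -142 and a MEF2 match at -35. The RefSeq start used for Myom1 lies inside the span of the gene in the deposited table. Among 32851 windows of the same length, 72.3% held an E-box, 14.7% an MCAT match, 13.6% a TATA match, 3.19% a MEF2 match and 1.63% a CArG match, so the matches describe the letters and name no site in use.

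Actn3 and Mybpc2, the most abundant of the 9 transcripts, were lower in DMD-Null and mdx than in WT. Actn3, which crosslinks actin at the Z-disc of fast fibres, was at 1702, 2064, 2083 and 2406 FPKM in DMD-Null, 2067, 2286, 1818 and 1769 FPKM in mdx, and 3812, 1787, 3227 and 2439 FPKM in WT. WT 1 and WT 3 were above every other library, and WT 2 and WT 4 lay within or near the range of DMD-Null and mdx, so the groups overlapped. The gene lies on the minus strand of chromosome 19 at 4861216 to 4877909 (GRCm38, as for all positions of genes given here). The log2 fold change was -1.0 (SE 0.30, edgeR adjusted p = 0.0298) in DMD-Null and -1.05 (SE 0.30, edgeR adjusted p = 0.0212) in mdx. Leaving out WT 1 and WT 3 gave -0.31 (edgeR adjusted p = 0.305) in DMD-Null and -0.36 (edgeR adjusted p = 0.211) in mdx, which ends both calls. With offsets for GC content, all 12 libraries kept, it was -0.63 and -0.64 and past the threshold in both.

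Mybpc2, the fast form of myosin-binding protein C (chromosome 7, 44501699 to 44524656, minus strand), was high in the same libraries. It was at 819, 971, 1023 and 1184 FPKM in DMD-Null, 954, 1117, 925 and 822 FPKM in mdx, and 1503, 846, 1497 and 1233 FPKM in WT, where WT 1 and WT 3 were again the highest of all 12 and the groups overlapped. The log2 fold change was -0.88 (SE 0.27, edgeR adjusted p = 0.032) in DMD-Null and -0.95 (SE 0.27, edgeR adjusted p = 0.0213) in mdx. Both calls ended when WT 1 and WT 3 were left out, with -0.33 in DMD-Null (edgeR adjusted p = 0.304) and -0.39 in mdx (edgeR adjusted p = 0.203), and with GC offsets the values were -0.63 and -0.66, both past the threshold. For Actn3 and for Mybpc2, leaving out any 1 of WT 1, WT 3, mdx 1, mdx 3 or mdx 4 ended the call in mdx, and any 1 of WT 1, WT 3, DMD-Null 1, DMD-Null 2 or DMD-Null 3 ended it in DMD-Null, with edgeR adjusted p from 0.0507 to 0.0642 in mdx and from 0.0766 to 0.0884 in DMD-Null.

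Mybpc1, the slow form (chromosome 10, 88518279 to 88605152, minus strand), did not pass the test. It ranged over 362 to 492 FPKM in DMD-Null, 378 to 409 FPKM in mdx and 266 to 459 FPKM in WT. On the log2 scale, with TMM factors, it differed from WT by -0.16 (SE 0.16, edgeR adjusted p = 0.446) in DMD-Null and -0.31 (SE 0.16, edgeR adjusted p = 0.14) in mdx. Mean FPKM went the other way, at 433 in DMD-Null, 393 in mdx and 355 in WT. With GC offsets the mdx value was -0.57 and past the threshold (edgeR adjusted p = 0.0201).

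At the M-band, Myom1 and Myom3 fell in both genotypes and Myom2 did not pass the test in either. Myom1 (chromosome 17, 71002633 to 71126855, plus strand) was at 105, 101, 100 and 124 FPKM in DMD-Null, 105, 110, 101 and 95.4 FPKM in mdx, and 138, 95.1, 138 and 128 FPKM in WT, with WT 2 as low as the lowest mdx library. After TMM scaling it averaged 1140 ± 178 CPM in DMD-Null, 1086 ± 87.9 CPM in mdx and 1891 ± 597 CPM in WT (SD, n = 4 each). On the log2 scale this was a change of -0.73 (SE 0.22, edgeR adjusted p = 0.0275) in DMD-Null and -0.80 (SE 0.22, edgeR adjusted p = 0.0168) in mdx. Leaving out WT 1 and WT 3 gave -0.32 (edgeR adjusted p = 0.202) in DMD-Null and -0.39 (edgeR adjusted p = 0.117) in mdx. Leaving out any 1 of WT 1, WT 3, DMD-Null 1, DMD-Null 2 or DMD-Null 3 also ended the DMD-Null call (edgeR adjusted p 0.0625 to 0.0836), and leaving out mdx 4 ended the mdx call (edgeR adjusted p = 0.0519).

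Myom3 (chromosome 4, 135759715 to 135815564, plus strand), the rarest of the 9 transcripts, was at 3.23, 2.05, 1.87 and 4.21 FPKM in DMD-Null, 2.73, 2.48, 2.02 and 3.25 FPKM in mdx, and 6.7, 3.02, 5.08 and 5.22 FPKM in WT. WT 2 lay among the dystrophin-deficient libraries and the other 3 WT libraries above them. The log2 fold change was -1.33 (SE 0.36, edgeR adjusted p = 0.0188) in DMD-Null and -1.47 (SE 0.36, edgeR adjusted p = 0.0108) in mdx, the largest falls among the 9 genes. Without WT 1 and WT 3 it was -0.79 (edgeR adjusted p = 0.136) in DMD-Null and -0.93 (edgeR adjusted p = 0.0775) in mdx, and the DMD-Null call also ended without DMD-Null 2 or without DMD-Null 3 (edgeR adjusted p 0.0608 to 0.0609). Myom2 (chromosome 8, 15057653 to 15133541, plus strand) ranged over 162 to 249 FPKM in DMD-Null, 149 to 178 FPKM in mdx and 112 to 173 FPKM in WT. Its log2 fold change was 0.08 (SE 0.20, edgeR adjusted p = 0.769) in DMD-Null and -0.19 (SE 0.20, edgeR adjusted p = 0.44) in mdx. The sign for mdx, and the call for DMD-Null, depended on the scaling: with library totals Myom2 was at 0.52 (edgeR adjusted p = 0.0276) in DMD-Null and 0.26 in mdx.

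Titin and nebulin, the giant filaments, did not pass the test in either comparison. Ttn was at 23, 26.9, 23.6 and 37.9 FPKM in DMD-Null, 19.9, 36.3, 21 and 23 FPKM in mdx, and 27.3, 16.2, 24.2 and 50.1 FPKM in WT, so the WT libraries held both the lowest and the highest value. On the log2 scale Ttn was at -0.54 (SE 0.33, edgeR adjusted p = 0.215) in DMD-Null and -0.69 (SE 0.33, edgeR adjusted p = 0.113) in mdx. Without WT 2, the lowest library, it was -0.77 (edgeR adjusted p = 0.0311) and -0.93 (edgeR adjusted p = 0.0129), and with GC offsets it was past the threshold in mdx (-1.0, edgeR adjusted p = 0.0426). The gene covers chromosome 2 from 76703980 to 76982547 on the minus strand, with up to 347 exons in an annotated transcript.

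Neb, on the minus strand of the same chromosome at 52136647 to 52367530 with up to 157 exons, was at 85.4, 83.6, 74.7 and 98.3 FPKM in DMD-Null, 81.4, 92.3, 74.5 and 74 FPKM in mdx, and 34.8, 61.2, 28.9 and 111 FPKM in WT. Here WT 1 and WT 3 were the lowest of all 12 libraries and WT 4 the highest, while the 8 dystrophin-deficient libraries lay between. The fitted log2 fold change was 0.16 (SE 0.28, edgeR adjusted p = 0.665) in DMD-Null and 0.07 (SE 0.28, edgeR adjusted p = 0.85) in mdx, and both turned to -0.29 and -0.37 without WT 1 and WT 3, still short of the threshold. Neb has the lowest transcript GC content of the 9 genes, 47%, and Actn3 the highest, 56.9%. In WT 1 and WT 3 the scaled level of Neb stood at -0.46 and -0.74 relative to its mean over all libraries on the log2 scale, and that of Actn3 at 1.34 and 1.09. Mybph, with 56.3% GC, stood at -0.07 and -1.39 in the same libraries. What part GC content has in these levels was not tested beyond the GC offsets.

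**Figure D2:**
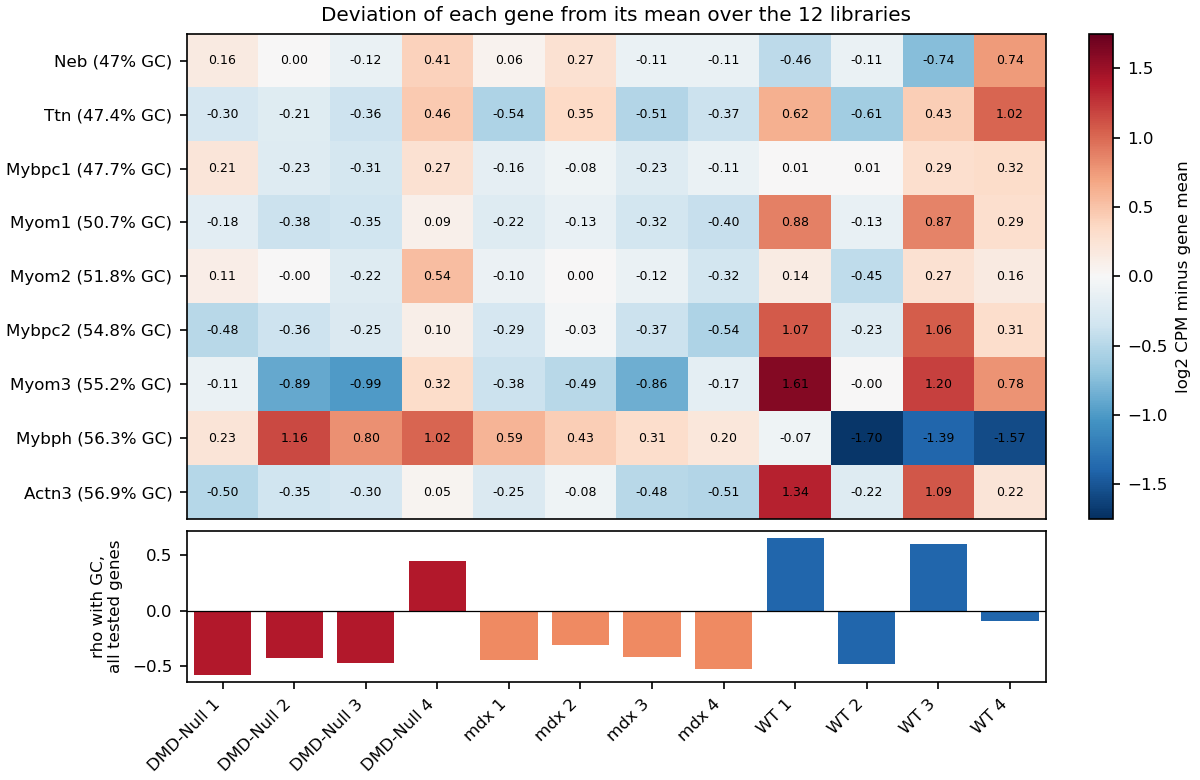
Upper panel: log2 scaled CPM of each gene minus its mean over the 12 libraries, with genes ordered by transcript GC content from Neb (47%) to Actn3 (56.9%) and libraries from DMD-Null to mdx to WT. Lower panel: rank correlation of each library's deviations with gene GC content over the tested genes, highest in WT 1 (0.655) and WT 3 (0.604), the libraries where Actn3, Mybpc2 and Myom3 are highest and Neb is lowest.

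**Figure D3:**
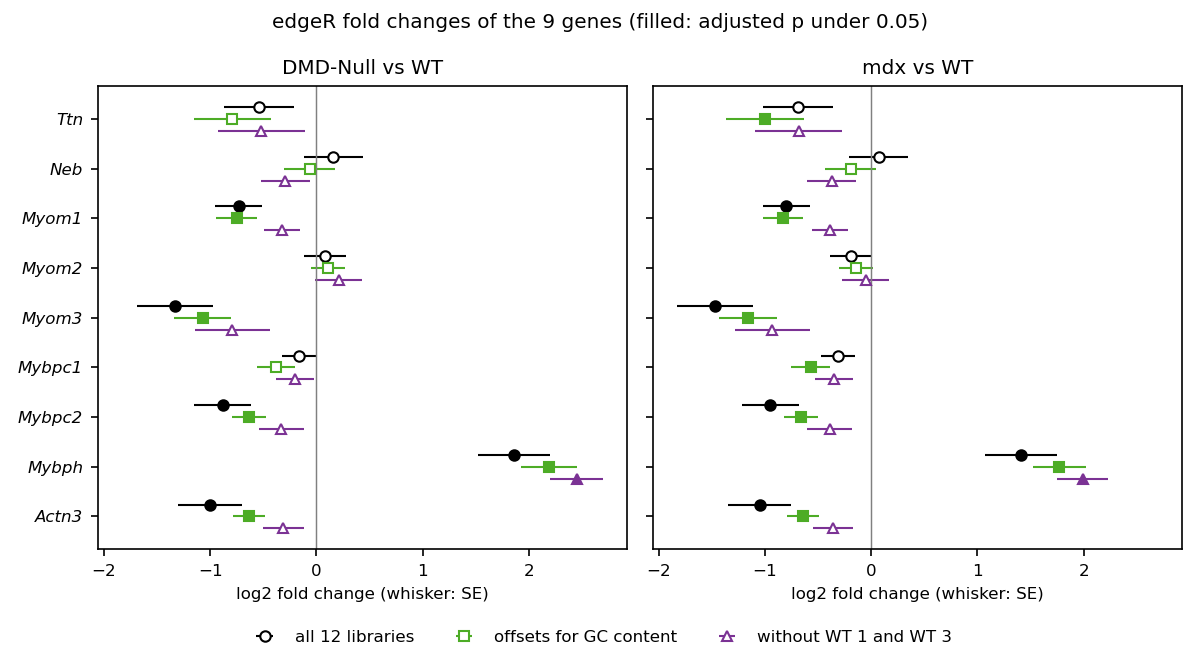
Log2 fold changes (horizontal axis, whisker SE) of the 9 genes for DMD-Null against WT and mdx against WT, with all 12 libraries, with GC offsets and without WT 1 and WT 3, where filled symbols have an adjusted p under 0.05. Mybph is filled in all 3 fits of both panels, and the falls of Myom1, Myom3, Mybpc2 and Actn3 are open without WT 1 and WT 3.

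Ratios of related genes within a library, in which the library's scaling cancels, were tested by permuting all 8 libraries exactly between the genotypes (two-sided). A test of 4 against 4 can give no p below 0.0286. Such ratios can still move with the GC content and length of the genes. The Myom1:Myom2 ratio of FPKM was 0.551, 0.521, 0.619 and 0.496 in DMD-Null, 0.625, 0.616, 0.587 and 0.642 in mdx, and 1.12, 0.846, 1.02 and 0.74 in WT. No DMD-Null or mdx library reached a WT library, and the exact permutation p was 0.0286 in each comparison, or 0.0857 after adjustment over the 18 ratio comparisons, which does not pass 0.05. Myom2 accordingly made up 64.1 ± 2.1% of myomesin FPKM in DMD-Null, 61.2 ± 1.01% in mdx and 51.1 ± 4.75% in WT (SD, n = 4 each). The Myom3:Myom2 ratio averaged 0.014 ± 0.00337 in DMD-Null, 0.016 ± 0.00433 in mdx and 0.0373 ± 0.0123 in WT, also without overlap and with the same exact permutation p and adjusted p. WT 1 and WT 3 had the highest values of both ratios, and without them the Myom1:Myom2 difference on the log2 scale was -0.54 in DMD-Null and -0.36 in mdx, against -0.76 and -0.58 with all libraries.

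The Mybph:Mybpc2 ratio was 0.0446, 0.0785, 0.0564 and 0.0517 in DMD-Null, 0.0503, 0.0377, 0.0439 and 0.0456 in mdx, and 0.0124, 0.00983, 0.00503 and 0.00744 in WT. The lowest dystrophin-deficient library was above the highest WT library, the ratio of geometric means was 6.88-fold in DMD-Null and 5.38-fold in mdx, and the exact permutation p was again 0.0286 (adjusted p = 0.0857). Of the FPKM of the 3 myosin-binding protein genes described here with Mybpc3 and Mybphl, Mybph made up 3.89 ± 1.08% in DMD-Null, 3.04 ± 0.311% in mdx and 0.668 ± 0.273% in WT (SD, n = 4 each). Mybpc3, the cardiac form, had at most 18 reads in a DMD-Null library, 61 in an mdx library and 17 in a WT library. The Mybpc1:Mybpc2 ratio overlapped between groups, at 0.442 ± 0.106 in DMD-Null, 0.417 ± 0.059 in mdx and 0.301 ± 0.124 in WT (exact permutation p = 0.2 for each against WT). Ttn:Neb also overlapped, at 0.323 ± 0.0475, 0.308 ± 0.0632 and 0.584 ± 0.274 in the same order (exact permutation p = 0.2 in DMD-Null and 0.143 in mdx). Actn3 against Actn2, the α-actinin of all striated fibres, was at 7.05 ± 2.67 in DMD-Null, 7.71 ± 1.88 in mdx and 7.43 ± 0.855 in WT, with differences of -0.15 and 0.03 on the log2 scale (exact permutation p = 0.6 and 0.914).

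**Figure D4:**
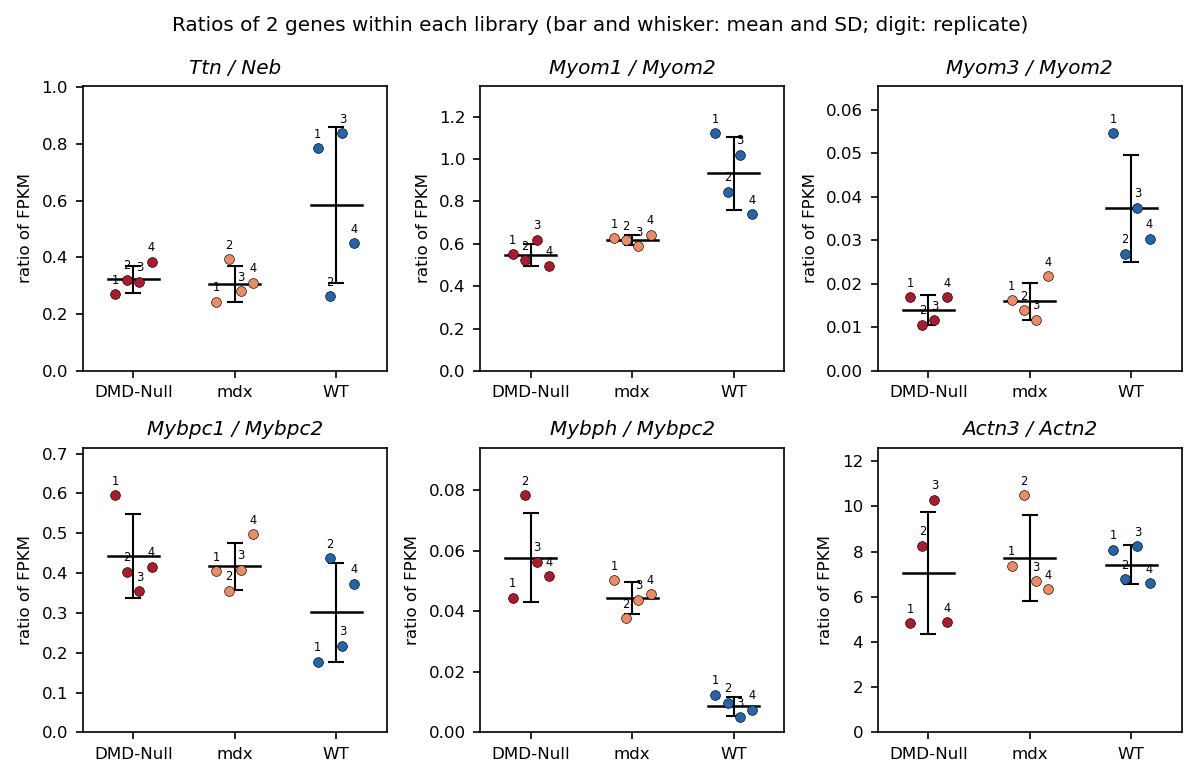
Ratios of FPKM between related genes within each library, with DMD-Null, mdx and WT from left to right, points numbered by replicate and bars and whiskers giving mean and SD of 4 libraries. The Myom1:Myom2 and Myom3:Myom2 ratios of DMD-Null and mdx lie below all WT points and Mybph:Mybpc2 above them, while Ttn:Neb, Mybpc1:Mybpc2 and Actn3:Actn2 overlap.

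Differences between DMD-Null and mdx were within the spread between libraries for each of the 9 genes, which does not show that their levels are equal. In DMD-Null against mdx 0 of the 9 were called by edgeR, 0 had an unadjusted p under 0.05, and DESeq2 also called 0 of them. Over all tested genes 0.0176% were called. Log2 fold changes lay between 0.06 for Actn3 (SE 0.30) and 0.45 for Mybph (SE 0.33), every edgeR adjusted p was 1, and the ranges of scaled CPM overlapped for each of the 9, as they did for all but 2.24% of the tested genes. The smallest exact permutation p among the ratios between these genotypes was 0.0857, for Myom1:Myom2 at -0.18 and Mybph:Mybpc2 at 0.36 on the log2 scale.

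Other genes of the sarcomere were taken as 5 lists by role. Among 16 tested partners (of 18 in the table) of the M-band and thick filament, 2 rose and 6 fell in DMD-Null and 2 rose and 6 fell in mdx, with median log2 fold changes of -0.14 and -0.31, beside 0.01 and 0.00 for all tested genes. Of all tested genes, 12.9% rose and 15.6% fell in DMD-Null, and 15% rose and 20.1% fell in mdx. Trim54, a ring-finger protein of the sarcomere, fell by 1.70 on the log2 scale (SE 0.36, edgeR adjusted p = 0.00607) in DMD-Null and fell by 1.76 (SE 0.36, edgeR adjusted p = 0.00457) in mdx. Fhl2, a titin-binding LIM protein, rose by 1.55 in DMD-Null (edgeR adjusted p = 0.000416). Its level was low, at 1.9 ± 0.393 FPKM in DMD-Null, 1.47 ± 0.307 FPKM in mdx and 0.468 ± 0.123 FPKM in WT. It passed the filter of at least 1 FPKM only through the dystrophin-deficient libraries, so its call is no separate support for a rise.

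Of 24 Z-disc and titin-binding genes, 2 rose and 12 fell in DMD-Null and 2 rose and 14 fell in mdx (medians -0.50 and -0.59), where 12.9% of all tested genes rose and 15.6% fell in DMD-Null, and 15% rose and 20.1% fell in mdx. Ankrd1 and Ankrd2, stretch-responsive ankyrin repeat proteins that bind titin, moved in opposite directions. Ankrd1 averaged 61.6 ± 28.5 FPKM in DMD-Null, 63.5 ± 26.8 FPKM in mdx and 3.33 ± 2.79 FPKM in WT (log2 fold change 3.86 and 3.91, edgeR adjusted p = 0.000643 and 0.00052). Ankrd2 averaged 47.3 ± 11.2 FPKM in DMD-Null, 37.1 ± 9.22 FPKM in mdx and 173 ± 66.8 FPKM in WT (log2 fold change -2.36 and -2.73, edgeR adjusted p = 0.000554 and 0.000208), and both kept their calls without WT 1 and WT 3.

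Among 20 tested thin filament and nebulin partner genes (of 21 in the table), 3 rose and 3 fell in DMD-Null and 3 rose and 5 fell in mdx (medians -0.15 and -0.18). For this list and the chaperones below, the shares over all tested genes were 12.9% higher and 15.6% lower in DMD-Null, and 15% and 20.1% in mdx. Actc1, the cardiac actin that is also expressed in developing skeletal muscle, rose by 2.26 (edgeR adjusted p = 0.000402) in DMD-Null and 2.51 (edgeR adjusted p = 0.000187) in mdx. Nrap, a nebulin-related protein of myofibril assembly, fell by 1.51 (edgeR adjusted p = 0.0143) and 1.71 (edgeR adjusted p = 0.00725), and in DMD-Null it was no longer called when WT 1 and WT 3 were left out (edgeR adjusted p = 0.108). Of 20 chaperones and regulators of sarcomere assembly, 0 rose in either comparison, 4 fell in DMD-Null and 7 fell in mdx (medians 0.00 and 0.08). Those that fell include the small heat shock protein Hspb6, at -1.06 in DMD-Null and -1.39 in mdx (edgeR adjusted p = 0.0129 and 0.003), and the actin-sensing coactivator Mrtfa, at -0.94 and -1.13 (edgeR adjusted p = 0.036 and 0.0157). When WT 1 and WT 3 were left out, Hspb6 in DMD-Null (edgeR adjusted p = 0.0626) and Mrtfa in both (edgeR adjusted p = 0.323 and 0.131) were no longer called.

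Of 15 fibre-type genes, 3 rose and 7 fell in each comparison (medians -0.93 in DMD-Null and -0.89 in mdx). With all libraries, 12.9% of all tested genes rose and 15.6% fell in DMD-Null, and 15% rose and 20.1% fell in mdx. Myh3, the embryonic myosin heavy chain of regenerating fibres, averaged 11.6 ± 3.09 FPKM in DMD-Null, 16.7 ± 2.43 FPKM in mdx and 1.03 ± 0.519 FPKM in WT (log2 fold change 2.91 and 3.43, edgeR adjusted p = 0.000768 and 0.000261). Myh8, also on this list, fell in both (log2 fold change -1.55 in DMD-Null, -1.36 in mdx, edgeR adjusted p = 0.0262 and 0.0365). Its falls kept their sign but not their call in the fit that excluded WT 1 and WT 3, at -0.52 and -0.32. Myh2, the myosin of type IIA fibres, averaged 59.1 ± 36.7 FPKM in DMD-Null, 39.2 ± 3.6 FPKM in mdx and 231 ± 144 FPKM in WT (log2 fold change -2.54 and -3.16, edgeR adjusted p = 0.00946 and 0.00303), and in DMD-Null it was not called once WT 1 and WT 3 were removed (edgeR adjusted p = 0.0793). Without those libraries the fibre-type list had 5 rises and 0 falls in DMD-Null and 5 rises and 1 fall in mdx. The Z-disc list then had 3 rises and 8 falls in DMD-Null and 2 rises and 9 falls in mdx. The M-band list had 2 rises and 2 falls in DMD-Null and 2 and 3 in mdx. The thin filament list had 4 rises and 1 fall in DMD-Null and 4 and 2 in mdx, and the chaperone list 0 rises and 3 falls in DMD-Null and 0 and 4 in mdx. Over all genes, 12% then rose and 9.84% fell in DMD-Null, and 12.4% rose and 10.9% fell in mdx. In DMD-Null against mdx 0 members of any list were called, among them the abundant Ckm (-0.01), Tcap (-0.28), Acta1 (0.05), Hspb6 (0.33) and Atp2a1 (0.03). Capn3, a muscle protease that binds titin, was named after its values were seen: it was at 0.88 (SE 0.13, edgeR adjusted p = 0.0974) and passed the threshold with GC offsets (0.89, edgeR adjusted p = 0.0193).

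**Figure D5:**
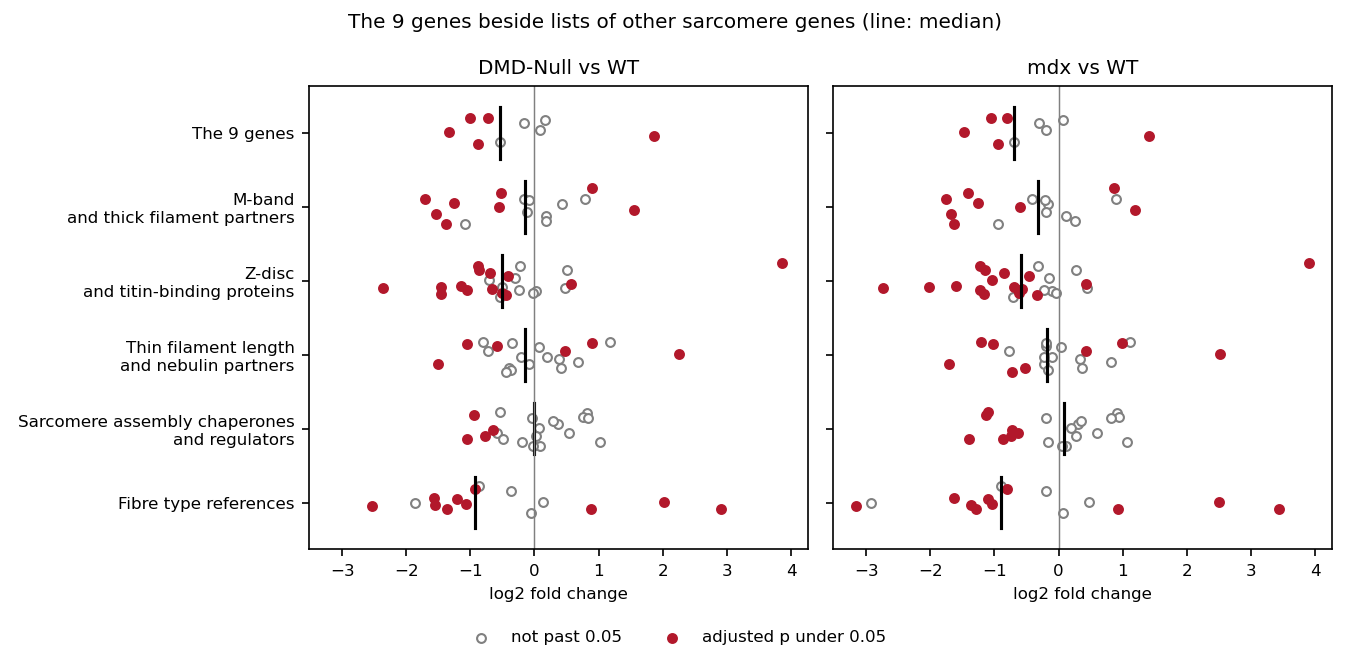
Log2 fold changes of the 9 genes and of the 5 lists of other sarcomere genes, for DMD-Null against WT (left) and mdx against WT (right), each point a gene, red where the adjusted p was under 0.05, and the line the median. The 9 genes have medians of -0.54 and -0.69, and Z-disc genes show 12 and 14 falls, with Ankrd1 the point farthest to the right. Of all tested genes, 15.6% fell in DMD-Null and 20.1% in mdx.

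The genes whose scaled CPM most resembled each member over the 12 libraries are given as a description, since the libraries share the 3 genotypes and the GC pattern of WT 1, WT 3 and DMD-Null 4. Actn3, Mybpc2 and Myom1 varied together, with pairwise Pearson r of 0.98 to 0.99, and Myom3 had r = 0.94 with Myom1. Outside the 9 genes, Actn3 was closest to the muscle glycogen phosphorylase gene Pygm (r = 0.996), the calcium channel gene Cacna1s (0.995) and Adrm1 (0.994). Mybpc2 was closest to Mast2 and Kank3 (0.993 each) and 2900076A07Rik (0.992), and Myom1 to Myh14 (0.995), Keap1 and Neurl4 (0.993 each). Myom3 was closest to Tgfb3 (0.978), Ddit3 (0.975) and Myh2 (0.973).

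Mybph was closest to Fam129b (r = 0.969) and the collagen genes Col6a1 (0.964) and Col5a1 (0.963). It had a negative r with 6 of the other 8 members and small positive values with Neb (0.13) and Myom2 (0.12). Ttn was closest to the splicing cofactor gene Srrm2 (0.951), Safb and Mir6999 (0.866 each), and Neb to the nuclear pore gene Tpr (0.910), Rbm20 (0.813), a splicing factor of titin pre-mRNA, and Kif13a (0.806). Myom2 was closest to Atp1b2 (0.907), Rubcn (0.863) and Rpl7 (0.862), and Mybpc1 to Popdc2 (0.913), the actin-binding Xirp2 (0.912) and Sec31b (0.880).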

How the data were processed

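The labels state that poly(A) RNA with an integrity number above 7 was made into stranded TruSeq libraries. Reads were handled with HISAT2 2.0, StringTie 1.3.4, cutadapt 1.10 and FastQC 0.10.1, per the submitters' processing notes, which give no roles. The deposited table holds whole-number counts per gene and library without normalization, and beside them FPKM values, scaled by the authors for gene length and depth. The derivation of the counts is not given in the sources read. The notes name GRCm39, but 99.70% of the 30155 genes shared with the GRCm38 annotation have its start or end, as do all 9 members, so positions are read as GRCm38.

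Samples were grouped by the labelled genotype. The 9 genes and the lists of other sarcomere and marker genes were chosen with earlier results of these data known, and the comparisons are descriptions in that light. Genes with FPKM of at least 1 in at least 4 libraries were tested with edgeR 4.0.16 in R 4.3.3 (quasi-likelihood, TMM factors, all 12 libraries, no covariate), adjusted by Benjamini-Hochberg over 11376 genes with a threshold of 0.05. The script was tested on simulated data. The SE is the absolute log2 fold change over the square root of F. Scaled CPM are counts per 1e+06 with TMM factors, and marker sums are unscaled. GC offsets came from a loess curve (span 0.5, degree 1) of each library on transcript GC content. Alternatives included DESeq2 1.42.0 and limma 3.58.1 on log2(FPKM + 1). Besides the members, each list gave the 2 called genes with the largest change per comparison, or its most abundant gene where none was called. A gene taken by this rule is not reported here. The 3 most alike genes were taken by Pearson r among genes whose FPKM averaged 5 or more. Other genes named singly, and the order of levels by counts per kilobase, were chosen after the data were seen.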

Additional observations from a re-analysis of the deposited data

Results flagged for a closer look

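Of 45 groups of 4 libraries examined, 1 held a library far from the others, and chance gives about 1 in 20. It was Mybph in WT, where WT 1 stood at 18.6 FPKM and the other 3 WT libraries at 7.53 to 9.17 FPKM. The gap was 0.852 of the group's range, above Dixon's critical value of 0.829. Without WT 1 the log2 fold change of Mybph was 2.37 in DMD-Null and 1.92 in mdx against WT.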

How the results depend on the processing

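Mybph kept its direction and its call under all 26 alternatives in both comparisons with WT, with log2 fold changes of 1.69 to 2.45 in DMD-Null and 1.23 to 2.03 in mdx. Myom1, Myom3, Mybpc2 and Actn3 kept their direction in both under every alternative that gave a value, and lost their call under 12 of 26, 4 of 25, 13 of 26 and 12 of 26 alternatives in DMD-Null and 6, 1, 12 and 12 in mdx. Myom3 had no value with a mean FPKM of at least 5. The causes were not tested.

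The count of members called, 5 in each comparison with WT, was 3 in DMD-Null and 2 in mdx with library totals, and also with limma at either pseudocount (1 or 0.1). It was 1 in both without WT 1 and WT 3, 3 in DMD-Null and 2 in mdx without these and DMD-Null 4, 1 in DMD-Null and 3 in mdx with the 8 libraries compared, and 3 in DMD-Null with no filter. Leaving out 1 library gave 1 (without DMD-Null 2) to 6 (without WT 2) in DMD-Null, 2 (without mdx 4) to 6 (without WT 2) in mdx, and 0 to 0 between the mutants. Over all genes, DMD-Null against WT gave 3241 calls, but 5527 and 5430 with limma at pseudocounts of 1 and 0.1, 1483 with a mean FPKM of at least 5, 1398 with 8 libraries, and 1707 to 6404 leaving out 1 library. The mdx comparison gave 4001, but 1701 with a mean FPKM of at least 5, 2649 without WT 1 and WT 3, 2268 with 8 libraries, and 2300 to 6874 leaving out 1 library. DMD-Null against mdx gave 2, but 6 with DESeq2, 1 with a mean FPKM of at least 5, 1 without WT 1, WT 3 and DMD-Null 4, 4 with 8 libraries, and 1 to 2 leaving out 1 library.

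Signs turned only in genes not called in the tests reported. For Neb, DMD-Null was at -0.06 with GC offsets, -0.07 with length offsets, -0.29 without WT 1 and WT 3 and -0.38 without these and DMD-Null 4, and mdx at -0.19, -0.20, -0.37 and -0.35. Myom2 in mdx was at 0.26 with library totals and 0.31 with limma, and in DMD-Null at -0.21 with length offsets. Mybpc1 was at 0.26 and 0.30 in DMD-Null and 0.11 and 0.17 in mdx with library totals and limma, and at 0.00 in DMD-Null with a mean FPKM of at least 5, and Ttn in DMD-Null at 0.01 with limma. DMD-Null against mdx without WT 1, WT 3 and DMD-Null 4 gave -0.08 for Ttn, -0.03 for Neb, -0.05 for Myom1, -0.17 for Myom3, -0.07 for Mybpc2 and -0.07 for Actn3. Leaving out 1 library, Neb spanned -0.05 to 0.54 in DMD-Null and -0.14 to 0.45 in mdx, and Myom2 -0.11 to 0.18 in DMD-Null. DMD-Null against mdx then spanned -0.08 to 0.41 for Ttn, -0.03 to 0.18 for Neb, -0.05 to 0.13 for Myom1, -0.16 to 0.31 for Myom3, -0.07 to 0.17 for Mybpc2 and -0.07 to 0.15 for Actn3. Of 174 recomputed ratio values 168 moved by less than 1 SD. The 6 that moved further were Ttn:Neb, Myom1:Myom2 and Mybpc1:Mybpc2 against WT, all without WT 1 and WT 3. Ttn:Neb then went from -0.72 to -0.11 in DMD-Null and from -0.80 to -0.19 in mdx on the log2 scale. Mybpc1:Mybpc2 went from 0.62 to 0.10 in DMD-Null and from 0.56 to 0.04 in mdx.

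The labels do not say whether the replicate numbers pair the libraries. Deviations of same-numbered libraries correlated at -0.587 to 0.217, above 0.1 in 3 of 12 pairs, and those of differently numbered libraries at -0.762 to 0.688. The highest value, for DMD-Null 4 and WT 3, joins libraries that share the GC pattern, so these correlations cannot settle whether the numbers pair. With a replicate block, 2 members were called in DMD-Null (1869 genes in all) and 3 in mdx (2377 genes), and 0 genes in DMD-Null against mdx, and also 0 with the block and GC offsets. With that block and those offsets Neb was at -0.03 in DMD-Null and -0.12 in mdx.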

Other observations

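Relatives and partners of the 9 genes that the account above does not describe, chosen after their values were seen, also differed from WT. Actn1, the α-actinin of non-muscle cells, averaged 4.75 ± 0.671 FPKM in DMD-Null, 4.29 ± 0.559 FPKM in mdx and 2.33 ± 0.604 FPKM in WT (SD, n = 4 each), and it rose by 0.57 in DMD-Null (edgeR adjusted p = 0.00985) and 0.43 in mdx on the log2 scale. Its mdx call ended when WT 1 and WT 3 were left out (edgeR adjusted p = 0.142). Csrp3, a LIM protein of the Z-disc, fell by 1.46 in DMD-Null and 2.02 in mdx on the log2 scale (edgeR adjusted p = 0.00562 and 0.000773). Lmod2, a leiomodin of the thin filament's pointed end, rose by 0.90 and 0.99 (edgeR adjusted p = 0.00507 and 0.00281), and the myosin chaperone Unc45b fell by 0.77 and 0.74 (edgeR adjusted p = 0.00388 and 0.00434). Csrp3, Lmod2 and Unc45b kept their calls without WT 1 and WT 3 in both comparisons.

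Of the other marker lists, slow-fibre markers summed to 188 to 257 CPM in DMD-Null, 183 to 266 CPM in mdx and 108 to 477 CPM in WT. Satellite cell markers summed to 46.4 to 58.1 CPM, 39.9 to 54.4 CPM and 37.6 to 47.9 CPM in the same order, smooth muscle markers to 344 to 491 CPM, 376 to 404 CPM and 390 to 611 CPM, and endothelial markers to 291 to 297 CPM, 259 to 328 CPM and 210 to 308 CPM. Lung markers summed to 1.16 to 2.47 CPM in DMD-Null, 15 to 18 CPM in mdx and 4.56 to 5.72 CPM in WT.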
